A study of Rattus norvegicus with 16 samples.

Results

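The 60 genes described here fell strongly in lipopolysaccharide (LPS)-treated rat microglia and were similarly low in cells that also received apolipoprotein A-I (ApoA-I). They were chosen from the mean TPM (a transcript level scaled for gene length and library size) of 3 groups. A gene had to have a mean of at least 10 TPM in Control libraries, a log2((LPS + 1)/(Control + 1)) of -2 or less, and an absolute log2((LPS+ApoA-I + 1)/(LPS + 1)) under 0.25. Of 30560 listed genes, 7302 met the first condition, 543 met the first and the second, and 60 met all 3. The cells were wild type primary microglia of the rat at day 12 in vitro, in 4 groups of 4 libraries. Control cells received neither agent, the LPS group received 100 ng/ml LPS for 20 hours, the ApoA-I group received 100 ug/ml of the protein in the medium, and the LPS+ApoA-I group received both. The time with ApoA-I and the order of addition are not given here. ApoA-I libraries entered no part of the choice. The labels do not say whether the 4 libraries of a group came from separate cultures or animals, so the spread between them may be technical.

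Microglia are the resident macrophages of the brain. LPS, from the outer membrane of Gram-negative bacteria, is sensed through Toll-like receptor 4 and its co-receptors and turns on inflammatory genes, while many transcripts that mark resting microglia are lost. ApoA-I is the main protein of high-density lipoprotein and takes up cholesterol that cells export through the transporter ABCA1. For a gene that falls with LPS, the design allows the question whether its transcripts are higher in cells that also received ApoA-I.

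Rows of the files carry Ensembl identifiers only. The table of gene names at hand, from RefSeq for the assembly GRCr8, pairs 0 of its 47357 genes with such an identifier. The 60 members were thus not named, their functions and sequences are not given, and the labelled cell type was not checked against markers. Members are called by their rank in mean Control TPM, from 1 for the most abundant to 60, and 3 are also given by identifier. In bulk RNA, fewer cells of a type and less RNA per cell cannot be told apart.

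Total estimated counts per library ranged from 12304916 to 17262383. The members held from 0.527% to 0.617% of the counts in Control libraries. A set of 8 abundant genes, none of them a member, varied together within groups. It held 7.87% ± 3.21 of the counts in Control and 3.91% ± 3.71 in ApoA-I libraries (SD, n = 4 each), with ApoA-I 2 at 9.43% apart from the other 3, at 1.61% to 2.66%. Within the members, Control 4 was the lowest of the Control libraries, with a summed level of 2915 TPM against 3279 to 3485 TPM in the other 3.

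The members covered a wide range of resting levels. Their mean Control levels ran from 10.8 to 380.35 TPM with a median of 23.8 TPM. At 100 TPM or more there were 7 members, between 30 and 100 TPM there were 19, and under 30 TPM there were 34. The LPS means ran from 0 to 62.1 TPM with a median of 4.09 TPM, and were 15.5% of the Control level at the median. With LPS+ApoA-I the median level was 15.99% of Control. ApoA-I without LPS left the members at a median of 92.9% of Control, with quartiles of 84.5% and 100.2%. In all 7302 genes of at least 10 TPM in Control, the median was 77.0% of Control with LPS. It was 85.0% with LPS+ApoA-I and 105.1% with ApoA-I without LPS. The summed level of the 60 members was 3260 ± 245 TPM in Control, 2936 ± 235 TPM in ApoA-I, 538 ± 24.9 TPM in LPS and 559 ± 26.9 TPM in LPS+ApoA-I libraries (SD, n = 4 each). The 8 libraries without LPS and the 8 with LPS did not overlap in this sum. The choice of members fixes this for Control against LPS and against LPS+ApoA-I. Control and ApoA-I libraries overlapped. The LPS and LPS+ApoA-I libraries overlapped too, which the choice for a small step between them favours.

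**Figure D1:**
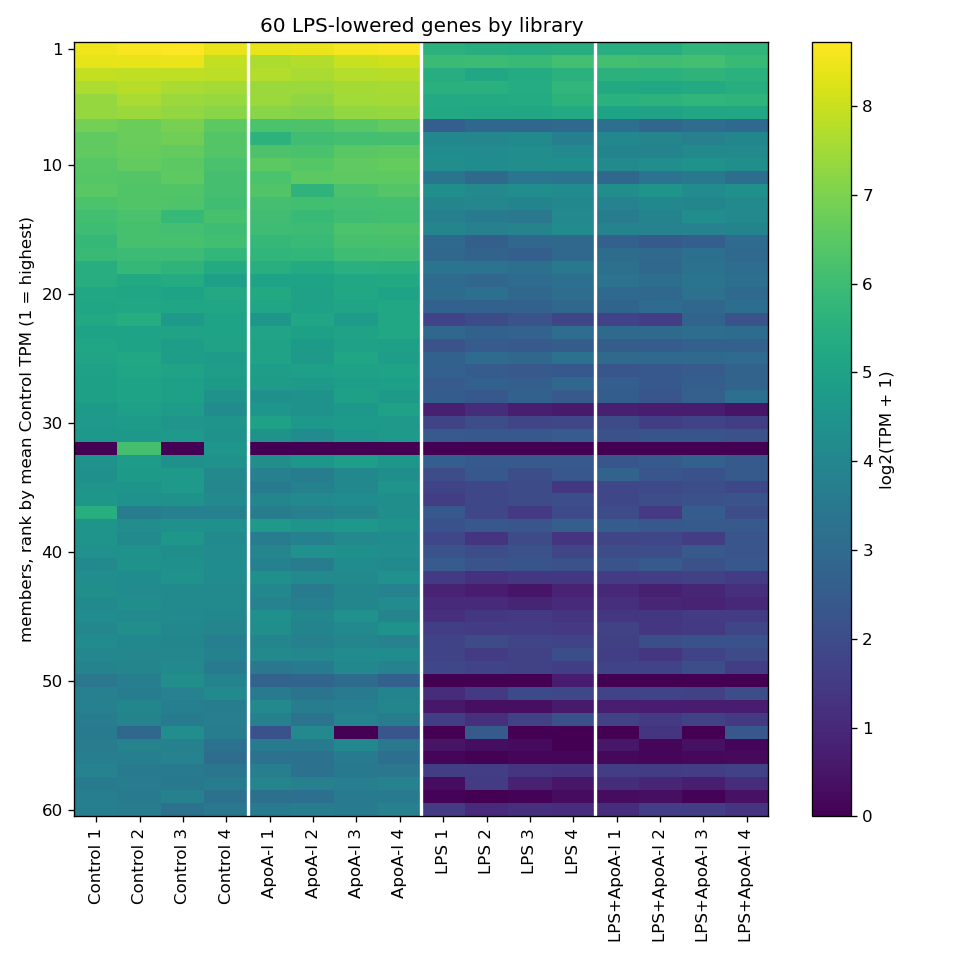
Level of each of the 60 members (rows, ranked by mean Control TPM) in each of the 16 libraries (columns), as log2(TPM + 1) by colour. The step lies between the 8 libraries without LPS and the 8 with LPS, and the row at rank 32 has a level above 0 in only 2 Control libraries.

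**Figure D2:**
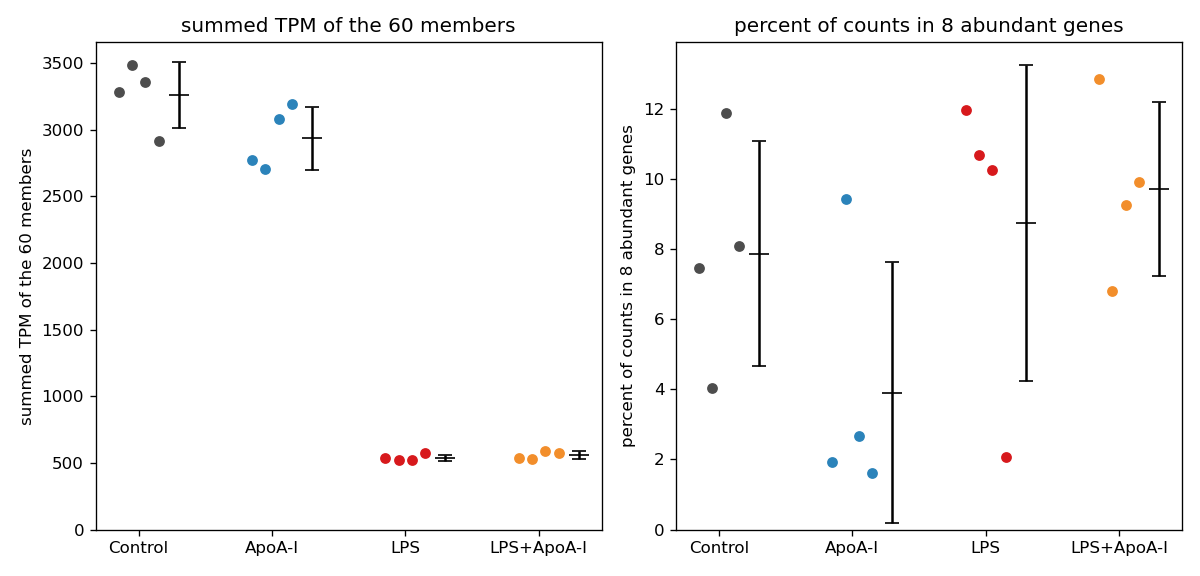
Left, summed TPM of the 60 members in each library, and right, percent of counts held by 8 abundant genes that varied together, by group. Points are libraries, and the bars beside them are the mean ± SD of 4; the members' sum lies from 2702 to 3485 TPM without LPS and from 519 to 587 TPM with LPS, and ApoA-I 2 stands apart on the right at 9.43%.

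The most abundant member, ENSRNOG00000020583, was at 359, 397, 420 and 345 TPM in Control libraries 1 to 4. It was at 333, 350, 386 and 408 TPM in ApoA-I libraries, which overlap the Control range. In LPS libraries it was at 48.1, 42.4, 40.7 and 41.7 TPM, and in LPS+ApoA-I libraries at 43.6, 41.9, 52.0 and 50.6 TPM. The libraries with LPS all lay under those without it, and the LPS and LPS+ApoA-I ranges overlapped. The rank 2 member was also alike in both LPS-treated groups, with 62.1 TPM on average in LPS and 65.1 TPM in LPS+ApoA-I libraries, from 315 TPM in Control. At rank 7 was the member that fell the most among the 7 at 100 TPM or more, from 109.1 TPM to 6.28 TPM with LPS and 7.25 TPM with LPS+ApoA-I. These values entered the choice and are given without a test.

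Several members lay close to a threshold. The members nearest to the Control minimum had means of 10.8 and 11.3 TPM, and the nearest genes outside had 9.75 and 9.74 TPM. For the fall with LPS, the nearest members had log2 values of -2.001 and -2.008, and the nearest genes outside had -1.998 and -1.984. For the step from LPS to LPS+ApoA-I, the nearest members had 0.248 and 0.235 on the upper side and -0.247 and -0.223 on the lower side. The nearest genes outside had 0.251 and 0.252 above and -0.324 and -0.338 below. When the conditions were applied again without each of the 12 Control, LPS and LPS+ApoA-I libraries in turn, 29 of the 60 members stayed in every time, and 31 dropped out at least once.

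**Figure D3:**
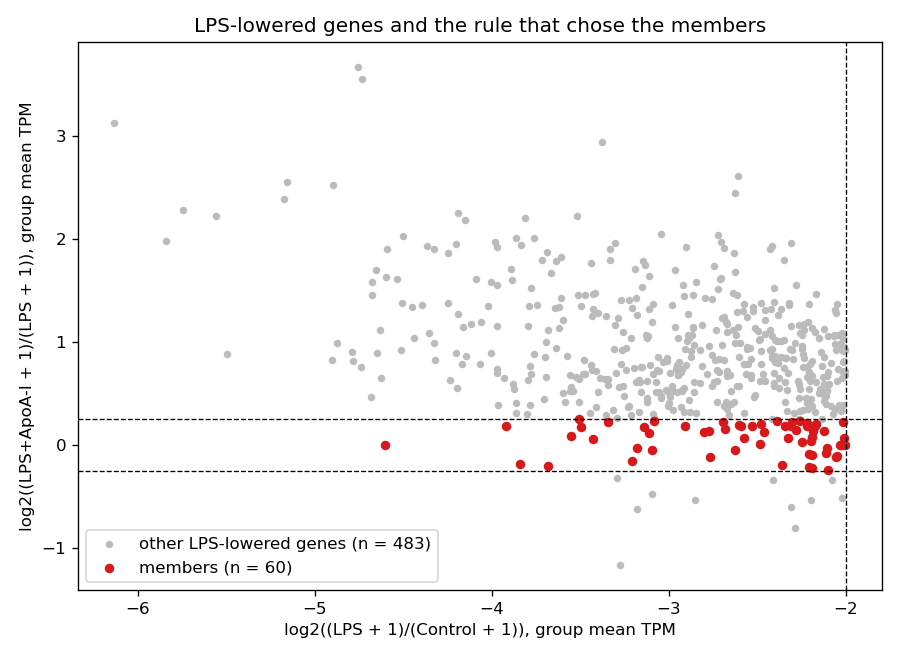
Each of the 543 genes with a Control mean of at least 10 TPM and a log2 fall of 2 or more with LPS, by that fall (x axis) and by the step from LPS to LPS+ApoA-I (y axis), both as log2 ratios of group mean TPM + 1. Red points are the 60 members between the dashed lines at -0.25 and 0.25, and grey points are the other 483 genes, of which 11 lie below the members and 472 above.

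LPS lowered all members by construction, so counts of calls in LPS against Control carry no information about them. In edgeR's quasi-likelihood test, on counts with TMM scaling, 59 members had enough counts to be tested, and all 59 passed as lower, against 38.4% of all 11902 tested genes (36.3% of all genes passed as higher). Their median log2 fold change was -2.18, where the median gene changed by -0.04.

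The comparison of LPS+ApoA-I with LPS measures the effect of ApoA-I on LPS-treated cells, and the members were chosen for a small value of it. On counts their fold changes had a median of 0.02, and 40 of 59 were within 0.25 log2 units. The median of all tested genes was 0.03. With library totals in place of TMM scaling the medians were 0.17 for the members and 0.18 for all genes, and on log2(TPM + 1) 0.11 and 0.13. The choice of members fixes these values, and nothing is read from them. On the TPM values of the rule 41 members were above 0 and 19 at or below it, while on counts with TMM scaling 30 were above and 29 below.

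How many members passed the test in this comparison changed with the scale, and so did the shares of all genes. With TMM scaling 1 member passed as higher, where 26.4% of all genes did, and 7 passed as lower, where 24.9% did. With library totals the split was 7 higher and 1 lower, where 37.8% and 14.9% of all genes were. On log2(TPM + 1) with limma it was 4 higher and 1 lower, where 34.4% and 14.8% of all genes were. In CPM (counts scaled to the TMM-adjusted library size) 2 members had LPS+ApoA-I libraries that all lay above all LPS libraries (24.1% of all genes did) and 6 had them below (23.8%). In TPM 5 lay above (32.1%) and 1 below (15.3%). For example, in CPM the rank 4 member was at 375, 379, 345 and 393 in LPS and at 282, 265, 283 and 306 in LPS+ApoA-I libraries, and the groups did not overlap. In TPM it was at 45.2, 45.9, 41.1 and 51.9 in LPS and at 37.9, 35.5, 39.4 and 41.7 in LPS+ApoA-I libraries, and the groups did. When TMM-scaled CPM replaced TPM in every condition, the Control minimum and the fall with LPS included, 48 genes met them, of which 19 are among the 60. The fall itself was smaller for some members on counts with TMM scaling. The edgeR log2 fold change of LPS against Control had an upper quartile of -1.91 in the 59 tested members and was -1.62 at the highest, where the conditions ask for -2 or less on TPM.

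With a pseudocount of 1, the rule's value is small for a member near 0 TPM in both groups, whatever the ratio of its levels. The LPS mean was under 1 TPM in 9 members. In 8 of these the count test could be run, and 7 of the 8 lay outside 0.25 log2 units on counts, 5 of them upward. Of these 7, 1 passed the test and 6 did not. ENSRNOG00000004158, at rank 59, is the member that passed as higher. It did not pass without LPS 1, 2 or 3, without LPS+ApoA-I 2 or 4, or with limma on log2(TPM + 1), and in a fit of the 8 LPS and LPS+ApoA-I libraries alone its counts were too low to be tested. It had 477, 394, 629 and 355 counts in Control libraries and 277, 284, 376 and 396 in ApoA-I libraries. With LPS 3, 1, 2 and 6 counts were left. With LPS+ApoA-I there were 8, 14, 3 and 17 counts. Its mean TPM went from 11.3 in Control to 0.0875 with LPS and 0.223 with LPS+ApoA-I, so that the larger of the levels with LPS was still a small part of the Control level. The LPS and LPS+ApoA-I libraries overlapped in its counts.

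**Figure D4:**
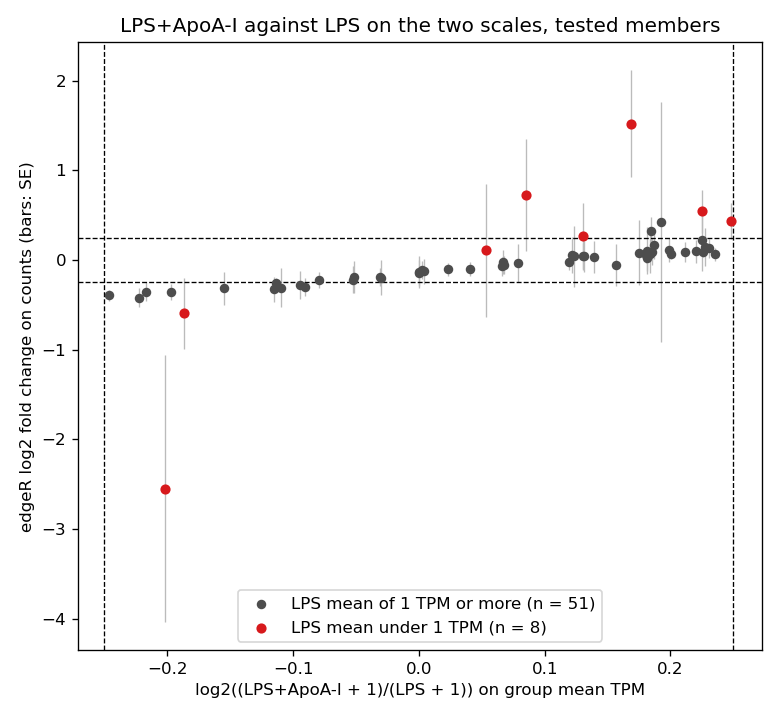
Step from LPS to LPS+ApoA-I for the 59 tested members on the TPM scale of the rule (x axis, log2 ratio of group mean TPM + 1) and as edgeR log2 fold change on counts (y axis, bars are SE). Dashed lines are at -0.25 and 0.25; of the red points, members with an LPS mean under 1 TPM, 7 of 8 lie outside the horizontal lines.

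The effect of ApoA-I on cells that had no LPS, ApoA-I against Control, is the comparison that the choice of members fixes least, although the Control libraries helped to choose them. Because the choice asked for Control levels that were high next to LPS in these same libraries, it can favour lower values in this comparison. Whether it did, and by how much, was not tested. Of 59 tested members, 0 passed as higher, where 2.50% of all tested genes did, and 7 passed as lower, or 11.9% of the members, where 1.77% of all tested genes did (edgeR's quasi-likelihood test, adjusted p under 0.05). At an unadjusted p under 0.05, 0 were higher and 25 lower, where 10% and 8.86% of all genes were. DESeq2 called 0 higher and 9 lower, where it called 4.23% and 2.55% of all genes. The fold change was negative in 48 of 59 members, with a median of -0.17, where the median gene had 0.00. The changes were small next to the fall with LPS: of the 7 that passed, 3 fell by more than 0.5 log2 units.

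ENSRNOG00000019721, at rank 8, had the lowest adjusted p of the members in this comparison. It was at 96.4, 104.0, 111.8 and 82.3 TPM in Control libraries and at 49.1, 64.8, 68.9 and 70.1 TPM in ApoA-I libraries. All 4 ApoA-I libraries lay below all 4 Control libraries, and the log2 fold change was -0.69 (SE 0.11, edgeR adjusted p = 0.00136). With LPS it was at 15.7, 15.3, 16.96 and 12.5 TPM, and with LPS+ApoA-I at 15.7, 14.8, 12.8 and 14.9 TPM. These 2 groups overlapped.

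In the rank 2 member the levels were 333, 334, 355 and 240 TPM in Control and 201, 207, 252 and 271 TPM in ApoA-I libraries. Control 4 lay inside the ApoA-I range in TPM, and the log2 fold change on counts was -0.51 (SE 0.10, edgeR adjusted p = 0.00582). The rank 3 member was at 240, 236, 233 and 228 TPM in Control and at 208, 192, 213 and 220 TPM in ApoA-I libraries, which did not overlap. Its log2 fold change was -0.24 (SE 0.05, edgeR adjusted p = 0.0093). At rank 34 the fold change was -0.61 (SE 0.16, edgeR adjusted p = 0.0291), and at ranks 4, 7 and 43 it was -0.24, -0.44 and -0.44, with SEs of 0.06, 0.09 and 0.10. The most abundant member had -0.12 (SE 0.08, edgeR adjusted p = 0.464).

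**Figure D5:**
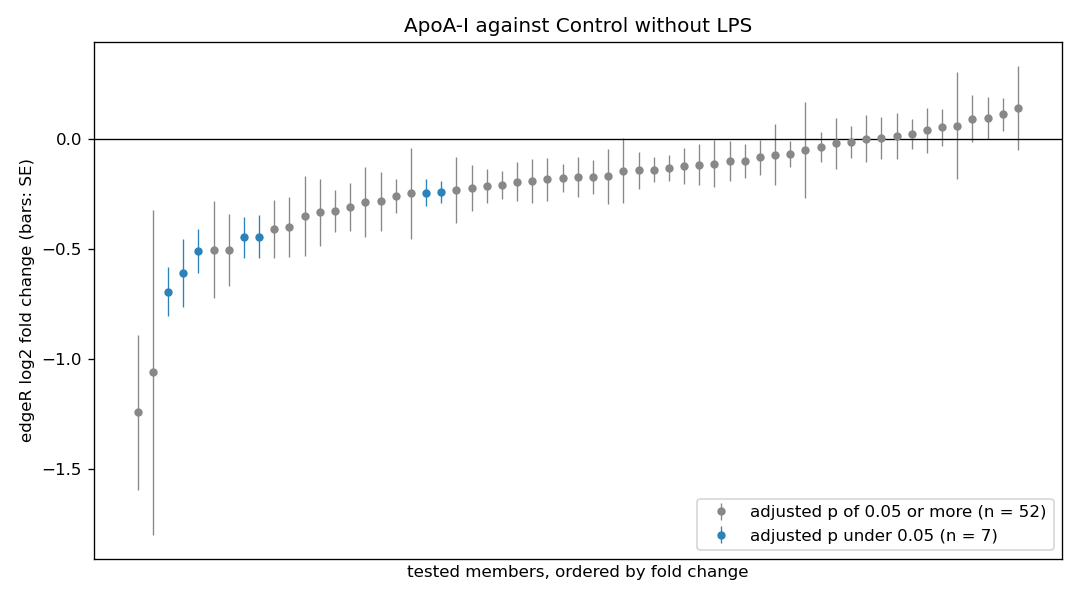
edgeR log2 fold change of ApoA-I against Control, without LPS, for the 59 tested members in order of their fold change (points, bars are SE). The 7 blue points have an adjusted p under 0.05 and all lie below 0, and 48 of the 59 points are negative.

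In CPM, 7 members had ApoA-I libraries that all lay below all Control libraries (3.97% of all genes did) and 0 had them above (4.28%). In TPM 4 lay below (1.55%) and 1 above (5.96%). The count of 7 members called lower changed with some of the libraries left out and with the scale. It was 5 to 8 in 13 of the 16 fits that left out 1 library, where 0.758% to 2.19% of all genes were called lower. It was 13 without Control 4, 11 without ApoA-I 4 and 4 without Control 3, where 2.24%, 2.28% and 0.766% of all genes were called lower. It was 3 with library totals (0.605% of all genes) or on log2(TPM + 1) with limma (0.479%), and 2 in a fit of the 8 Control and ApoA-I libraries alone (0.460%). With the share of the 8 abundant genes, which was lower in ApoA-I than in Control libraries on average, as a covariate it was 5 (0.790% of all genes).

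The response to LPS in the presence of ApoA-I, LPS+ApoA-I against ApoA-I, lowered nearly all members. In edgeR's test 58 of 59 passed as lower, where 34.8% of all tested genes did, and 0 passed as higher, where 34.5% did. At an unadjusted p under 0.05 it was also 0 higher, where 35.6% of all genes were. In DESeq2 it was 0 higher as well, where 33.8% of all genes were. The LPS+ApoA-I libraries were used in the choice, so nothing is read from these counts. The median log2 fold change of the members was -2.02, against -2.18 for LPS against Control. The most abundant member had -2.64 with ApoA-I present and -2.75 without. ENSRNOG00000019721 had -1.74 and -2.21. The member without a call, at rank 54, had 5, 22, 0 and 5 counts in ApoA-I and 0, 3, 0 and 7 counts in LPS+ApoA-I libraries.

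The 60 members were set beside the other LPS-lowered genes that met the same Control and LPS conditions. In 279 of these the step to LPS+ApoA-I was a rise of 0.25 to 1 log2 unit, in 193 it was a rise of 1 or more, and in 11 a further fall of 0.25 or more. The sets are defined by this step, so the values that follow are descriptions without a test. The median Control level was 23.8 TPM in the members, 27.3 TPM in the genes with the smaller rise, 40.9 TPM in those with the larger rise and 75.6 TPM in those that fell further. The fall with LPS had a median of -2.37 log2 units in the members, -2.75 and -3.09 in the sets that rose, and -2.41 in the set that fell further. With LPS+ApoA-I the median level was 15.99% of Control in the members, 20.0% and 31.2% in the sets that rose, and 11.6% in the last.

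ApoA-I against Control was called lower in 11.9% of the tested members, in 5.38% of the genes with the smaller rise, in 3.14% of those with the larger rise and in 0 of the 11 that fell further. The median log2 fold changes were -0.17, -0.09, -0.02 and -0.09, in the same order, and -0.00 in all genes of at least 10 TPM in Control. The share of negative values was 81.4%, 67.7%, 53.9% and 72.7%, against 50.4%. These sets share the Control libraries that defined them. A choice for Control levels that were high next to LPS can favour lower values in each of the LPS-lowered sets, which was not tested.

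Gene length was compared as counts per TPM in Control libraries relative to the median gene of at least 10 TPM. It was no condition of its own, but it enters the choice through TPM, which divides by gene length. The median was 1.14 in the members (quartiles 0.607 and 1.71, 59 genes with a value), 1.05 and 0.956 in the sets that rose and 0.775 in the set that fell further. The quartiles of the members and of the sets that rose overlapped widely. Of the nonzero counts, 2.36% were not whole numbers in the members, against 7.24% in all genes of at least 10 TPM. The share was 5.39% and 4.34% in the sets that rose and 0% in the set that fell further. RSEM gives counts that are not whole where it divides reads between genes.

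A few members rest on little data or on 1 library. The rank 32 member had 3 counts in Control 2, 1 count in Control 4 and none in any other library, and in TPM, which divides by gene length, these were 70.6 and 22.8. It was the member that was not tested, and its LPS level is listed at 0. At rank 37 the level was 43.3 TPM in Control 1 and at most 13.1 TPM in the other Control libraries, while its counts of 84, 47, 79 and 69 in the same 4 libraries show no such gap. At rank 50 there were 169 counts over the Control, 64 over the ApoA-I, 2 over the LPS and 0 over the LPS+ApoA-I libraries, so a step between the groups with LPS was not detectable at this depth. The rank 54 member had 76 counts over the Control and 6 over the LPS libraries, all 6 of them in LPS 2.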

How the data were processed

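The authors deposited an estimated count per gene and a TPM value per gene for 16 libraries of bulk RNA. Tools named, without their roles, in the submitters' processing notes are RSEM 1.3.1, STAR 2.7.10b and cutadapt 1.8.1. The build named there is the mouse mm10, while the identifiers are those of Ensembl rat genes. No annotation is named (not given in the sources used here). A build or annotation that does not match the reads could affect single genes or many of them, which was not tested. Samples were grouped by title. The deposited counts (3.24% of values not whole, tolerance 0.005) were rounded. Genes were kept by filterByExpr with a minimum count of 10. All 16 libraries entered 1 fit of 4 group means with edgeR 4.0.16 in R 4.3.3, with TMM scaling and its quasi-likelihood test (12 residual degrees of freedom), with Benjamini-Hochberg adjustment over 11902 genes and a threshold of 0.05. The SE is the size of the log2 fold change over the root of its F. The deposited TPM values were used for the choice of members, for levels, and with limma 3.58.1 on log2(TPM + 1); DESeq2 1.42.0 was an alternative. The test was also tried on simulated data in which a small part of the genes changed, in a single group. That setting is unlike the broad change with LPS here, so nothing is read from it.

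The members and lists were chosen with earlier results of these data known. The planned gene lists and cell type markers, given by symbol, could not be applied, and the planned naming rule came down to at most 2 identifiers a direction: the member with the highest Control mean, the member with the lowest p in ApoA-I against Control, and 1 of the 2 members nearest to the Control minimum. Among the members that qualified, these 3 were picked after their values were seen, and members referred to by rank were also picked in this way. Over 24 pairs of replicates the chi-square of the counts was 3.10 to 92.3 times its degrees of freedom, more than sampling noise gives. Each library was counted as 1 sample, although this spread cannot tell separate cultures or animals from separate preparations of 1 culture. The depth of 12304916 to 17262383 counts per library leaves 14 members with under 100 counts over the 4 LPS libraries.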

Additional observations from a re-analysis of the deposited data

Results flagged for a closer look

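In LPS 4 the members held 0.123% of the counts, far from the other LPS libraries, at 0.106% to 0.107%. Without LPS 4, 52 genes met the conditions, 46 of them among the 60. ApoA-I 2 had 9.43% of its counts in the 8 abundant genes, apart from its group at 1.61% to 2.66%. Without this library 6 members were called lower in ApoA-I against Control, where 2.19% of all genes were. The total of LPS 3 was 16386274 counts, above the other LPS libraries, at 12739790 to 13136293. The limit on distance that picked out these libraries is passed by chance in about 1 of 20 groups; among the members' TPM values it was passed in 11 of 236 combinations of member and group.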

How the results depend on the processing

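The number of genes meeting the conditions was 60. It was 101 with a Control minimum of 5 TPM, between 48 and 70 under the 4 other planned changes, and 52 to 70 when 1 library was left out. Members called lower in ApoA-I against Control were 7, but 3 with library totals, 3 with limma on log2(TPM + 1), 2 with only the 8 libraries of the groups, and 4 to 13 when 1 library was left out; in no alternative was a member called higher. All genes called in that comparison were 508, with 297 higher and 211 lower. They were 806 with DESeq2, 310 with limma, 94 with the 8 libraries and 224 with the share of the 8 abundant genes as a covariate, an alternative chosen after seeing the data. Leaving out 1 library gave 186 to 775, namely 186 when ApoA-I 1 was left out, and 284, 325, 202 and 775 when Control 1, 2, 3 or 4 was. With library totals the split was 353 higher and 72 lower. In LPS+ApoA-I against LPS, where all alternatives were chosen after seeing the data, 1 member was called higher and 7 lower. The higher count was 7 with library totals, 4 with limma, 2 with DESeq2, without a filter, with the replicate block or with the covariate, 0 with the 8 libraries, and 0 to 2 when 1 library was left out. The lower count was 1 with library totals or limma and 5 to 9 when 1 library was left out. The cause was not tested. Over all genes, library totals in place of TMM scaling changed the split of higher and lower calls from 4326 and 4570 to 2308 and 6741 for LPS against Control, from 3145 and 2969 to 4503 and 1772 for LPS+ApoA-I against LPS, and from 4111 and 4144 to 2206 and 6051 for LPS+ApoA-I against ApoA-I. In LPS+ApoA-I against ApoA-I, 58 or 59 members were called lower in every alternative run, and it was 58 or 59 for LPS against Control as well. In ApoA-I against Control, and likewise in LPS+ApoA-I against ApoA-I, the 3 genes given by identifier kept their direction and their side of the threshold in every alternative run. In LPS+ApoA-I against LPS, ENSRNOG00000004158 lost its call in 6 of 23 alternatives that tested it, 5 of which left out 1 library; its fold change was positive in all 23.

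Libraries with the same replicate number did not deviate together: their correlations ran from -0.179 to 0.176 with a median of 0.00, 3 of 24 were over 0.1, and a library correlated best with its own number in 13 of 48 cases. With the replicate block, 8 members were called lower by ApoA-I without LPS (1.66% of all genes were), and 58 by LPS in the presence of ApoA-I (34.7% of all genes were).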
